A study of Mus musculus with 9 samples.

Results

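The SLC25 genes encode the mitochondrial carriers, a family of membrane proteins that move nucleotides, phosphate, organic acids, amino acids, metals and cofactors, mostly across the inner mitochondrial membrane. Members were taken as the gene symbols that begin with Slc25a and end in a number. By this rule 43 of the 16698 genes kept from the table were members. The uncoupling proteins and mitochondrial carrier homologues, which belong to the same family but have other symbols, were described apart.

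The heart makes nearly all its ATP in mitochondria. ADP enters through the adenine nucleotide translocases and phosphate through the phosphate carrier, and ATP leaves in exchange for ADP. Electrons of cytosolic NADH reach the respiratory chain through the malate-aspartate shuttle, which in cardiac muscle runs through the 2-oxoglutarate carrier and the aspartate/glutamate carriers. Other carriers supply coenzyme A, NAD, iron and glutathione to the matrix.

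RNA was sequenced from the left ventricle of ICR/CD1 mice, an outbred strain, at postnatal day 14. Transverse aortic constriction (TAC) narrows the aorta with a ligature, so that the ventricle pumps against a raised pressure. Surgery took place on postnatal day 1 for 3 libraries (day-1 TAC) and on postnatal day 7 for 3 more (day-7 TAC). The 3 sham libraries come from control mice whose day of surgery the labels do not give. The time under load therefore differed between the TAC groups along with the age at surgery. The labels name no allele. Nor do they say that each library is a separate animal, so a p-value here reflects only how much these libraries vary, which may be technical. Because the tissue was bulk ventricle, fewer cells of a type and less RNA per cell cannot be told apart.

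Values are the deposited log2 values, which behave as scaled reads, and a fold change is a difference of group means on that scale. Recovered depth was 18535202 to 26521005 reads per library. Of the 43 members, 40 passed the filter on low values (above 0 on the log2 scale in at least 3 libraries), and Slc25a21, Slc25a41 and Slc25a43 did not, with 2 to 20 reads per library. Within groups the median SD of the members tested was 0.148, against 0.15 over all genes tested. Day-1 TAC replicates 3 and 1 stood apart in different ways. Replicate 3 had 10532 reads of the X-inactivation transcript Xist, against 7 to 40 in the other libraries, and 18 reads of the Y-linked gene Ddx3y, against 3312 to 4706. Members on the X chromosome are Slc25a5, Slc25a14, Slc25a43 and Slc25a53, of which Slc25a43 was not tested, and results of the others are given with and without that library. Replicate 1 differed more from its group mates in read counts (chi-square per gene of 25 and 25.6) than they did from each other (10), and other pairs within a group were at 8.7 to 19.6. Its fibroblast marker sum was 6975, against 5702 and 4919 in replicates 2 and 3, and its cardiomyocyte marker sum was 117800, against 147400 and 142600. Without replicate 1, 10 of the 13 members called with day-1 TAC against sham were still called; Slc25a3, Slc25a5 and Slc25a51 were not. The 12 cardiomyocyte markers were high in every library, with summed linear values (deposited values taken out of the log) of 117800 to 147400 with day-1 TAC, 133200 to 142700 in the day-7 TAC group and 153600 to 159900 in sham.

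Calls rest on limma with a threshold of 0.05 on the p-value after Benjamini-Hochberg adjustment across the 13712 genes tested. With day-1 TAC against sham, 13 of the 40 members tested were called, 4 higher and 9 lower (32.5%), beside 34.8% of all genes (14.3% higher and 20.5% lower). With day-7 TAC against sham, 13 were called, 5 higher and 8 lower (32.5%), beside 28.9% of all genes (13.8% higher and 15.1% lower). Between day-1 TAC and day-7 TAC, 3 were called, 1 higher and 2 lower (7.5%), beside 16.7% of all genes (6.42% higher and 10.3% lower). Of all genes called between the TAC groups 38.5% were higher with day-1 TAC, and 46.2% to 48.7% under 3 other scalings. Against sham these shares are near the background, so the family as a whole did not stand apart from other genes by its number of calls. The median log2 fold change of its tested members was -0.07 in the day-1 TAC comparison with sham, -0.04 in that of day-7 TAC and 0.02 in the direct one, beside -0.04, -0.01 and -0.03 over all genes.

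The same sham libraries serve both TAC comparisons. Slc25a3, Slc25a12, Slc25a27 and Slc25a34 were lower and Slc25a23 was higher in both TAC groups. In all, 22 of the 40 members (55%) were called in at least 1 comparison, beside 49.2% of all genes, and 18 in none. The limma F test for any difference among the 3 groups called 20 of the 40, beside 44.4% of all genes.

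**Figure D1:**
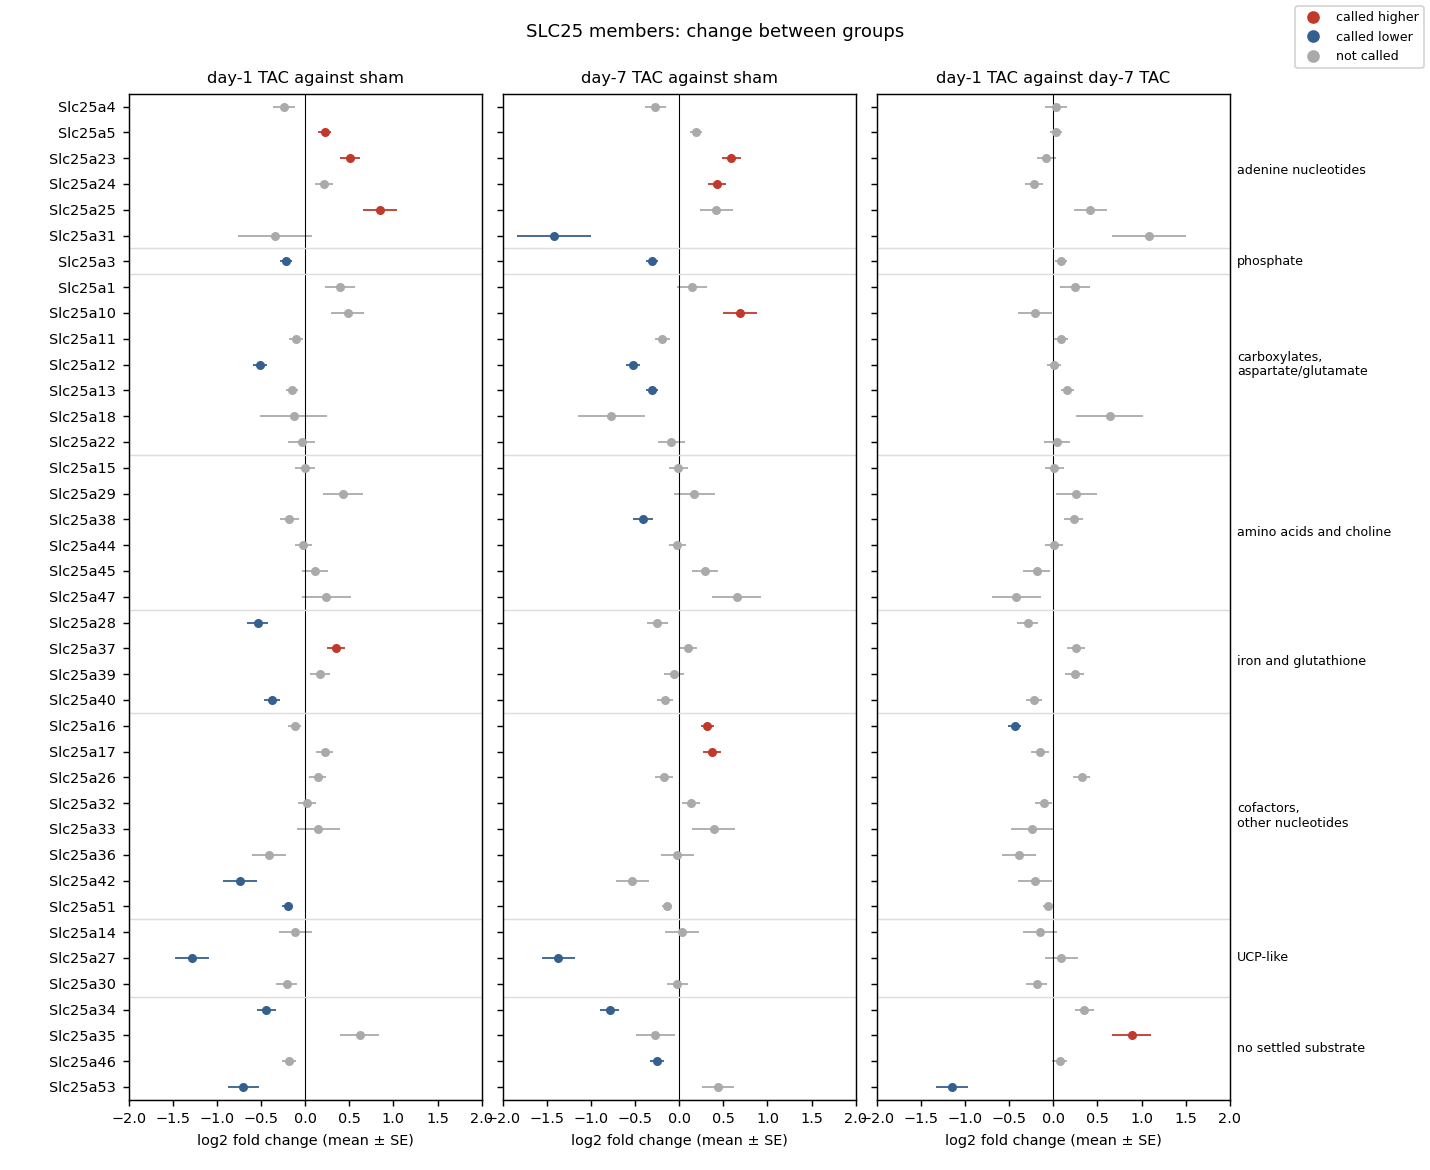
Log2 fold change (mean ± SE, horizontal axis) of 39 of the 40 SLC25 members tested, grouped by what they carry, for day-1 TAC against sham, day-7 TAC against sham and day-1 TAC against day-7 TAC. Coloured points passed the limma test; calls against sham lie on both sides of 0, and Slc25a27 is the lowest called member with day-1 TAC (-1.28).

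Levels can be compared between genes only per length of exon. Per kilobase, the linear value of Slc25a4, the adenine nucleotide translocase of heart and skeletal muscle, was 2690 ± 279 with day-1 TAC, 2620 ± 171 with day-7 TAC and 3160 ± 218 in sham (SD, n = 3 each). Next came Slc25a3 at 143 ± 4.72, 134 ± 2.21 and 167 ± 7.04 in the same groups, then Slc25a11, Slc25a5, Slc25a13 and Slc25a12. Slc25a4 thus stood above every other member by an order of magnitude, and held 71.4% of the members' summed linear values with day-1 TAC, 71.4% with day-7 TAC and 72.4% in sham. In sham its level per kilobase was at or above that of nearly all genes in the table, while Slc25a21, the oxodicarboxylate carrier and the lowest member, was at 0.105 ± 0.0362. Among the 20 members tested with the higher sham level per kilobase, 13 were called in at least 1 comparison, and among the 20 with the lower level 9.

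**Figure D2:**
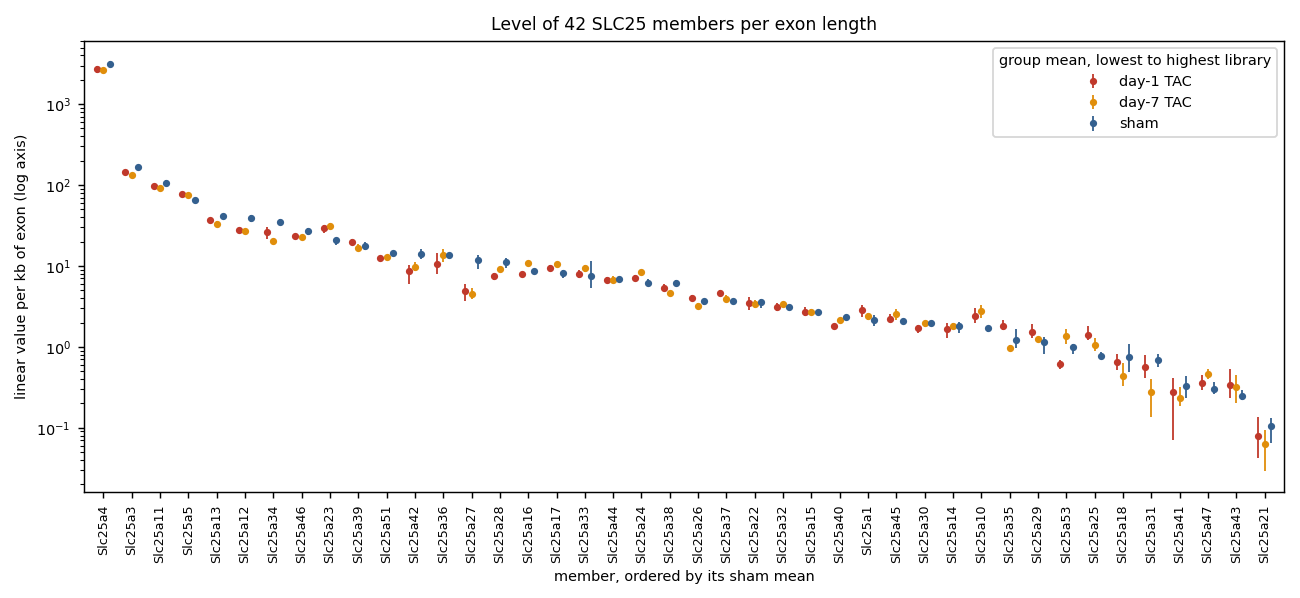
Linear value per kilobase of exon (log axis) of 42 of the 43 SLC25 members, ordered by their sham mean; points are group means and lines run from the lowest to the highest of 3 libraries. Slc25a4 lies far above the others in each group (3160 in sham, against 167 for Slc25a3).

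All members together held 0.848%, 0.905% and 0.99% of the summed linear values of all genes in the day-1 TAC libraries, 0.869%, 0.9% and 0.834% in the day-7 TAC libraries and 1.03%, 0.988% and 0.951% in sham. Only the day-7 TAC libraries lay wholly below sham (exact permutation test, two-sided, p = 0.1, the smallest that 3 against 3 allows; p = 0.3 for day-1 TAC against sham). Without Slc25a4 the share was 0.261% ± 0.0029 with day-1 TAC, 0.248% ± 0.0024 with day-7 TAC and 0.274% ± 0.0035 in sham (SD, n = 3 each). In this smaller share none of the 3 groups overlapped (exact permutation p = 0.1 for each pair of groups). These are sums of reads, so members with long transcripts weigh more.

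Letters upstream of 4 called members are shown: 3 were lower in both TAC groups, and the upstream letters of Slc25a25 hold an element that few windows hold. RefSeq windows on GRCm38.p6, from 250 bases before a start to 50 after it, were found for 33 of the 43 members (43 windows, since some have several starts). Printed here are the 250 bases before the start, 5' to 3' on the gene's strand, with a motif match in capitals. All 4 genes lie on the minus strand. The windows are chr10:91123968-91124217 for Slc25a3, chr2:71367756-71368005 for Slc25a12, chr4:141623835-141624084 for Slc25a34 and chr2:32424067-32424316 for Slc25a25, of whose 3 starts the one with a match is shown. The bases after that Slc25a25 start were not found in a GENCODE transcript of the gene. For Slc25a3 GENCODE places the gene's 5' start, at 91124059, within the window, so part of the printed letters lies inside the annotated gene.
Slc25a3: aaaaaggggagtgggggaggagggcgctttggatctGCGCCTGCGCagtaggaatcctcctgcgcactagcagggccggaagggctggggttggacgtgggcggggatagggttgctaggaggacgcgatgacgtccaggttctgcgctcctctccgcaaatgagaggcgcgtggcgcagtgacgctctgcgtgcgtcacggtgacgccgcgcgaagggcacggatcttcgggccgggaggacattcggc
Slc25a12: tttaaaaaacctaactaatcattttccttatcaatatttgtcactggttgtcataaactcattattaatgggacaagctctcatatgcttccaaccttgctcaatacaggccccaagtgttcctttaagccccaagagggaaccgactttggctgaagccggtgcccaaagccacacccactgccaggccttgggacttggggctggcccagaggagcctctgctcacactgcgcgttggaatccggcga
Slc25a34: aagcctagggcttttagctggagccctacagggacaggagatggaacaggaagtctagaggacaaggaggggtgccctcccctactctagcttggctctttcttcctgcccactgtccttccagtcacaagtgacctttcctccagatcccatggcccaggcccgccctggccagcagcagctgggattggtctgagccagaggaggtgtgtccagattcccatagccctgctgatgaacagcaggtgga
Slc25a25: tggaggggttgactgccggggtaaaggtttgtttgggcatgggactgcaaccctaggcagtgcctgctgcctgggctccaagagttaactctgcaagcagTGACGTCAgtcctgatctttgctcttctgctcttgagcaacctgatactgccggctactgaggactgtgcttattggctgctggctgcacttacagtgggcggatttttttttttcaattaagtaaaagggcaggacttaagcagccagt
The capitals in Slc25a3 mark a match to the element of nuclear respiratory factor 1, GCGCA, any base and GCGC, on the other strand, which begins 214 bases before the start. Those in Slc25a25 mark a cAMP response element, TGACGTCA, which begins 150 bases before that start.

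Both strands were searched. The motif of nuclear respiratory factor 1 was in 2 of the 43 member windows (Slc25a3 and Slc25a31), or 4.65%, beside 4.6% of all windows. The TGACGTCA motif was in 2 (Slc25a25 and Slc25a36), or 4.65%, beside 1.79% of all windows. An element of the estrogen-related receptors, TNAAGGTCA, was in 0 of 43 (1.28% of all windows), and one of GA-binding protein, CCGGAAGT, in 0 of 43 (3.89% of all). No member window held more than 1 of the 4 motifs. A match describes letters in the window and is not a bound site.

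Adenine nucleotide carriers were called in both directions. Among the 6 tested, 3 rose and none fell with day-1 TAC (14.3% of all genes rose and 20.5% fell), and 2 rose and 1 fell with day-7 TAC (13.8% and 15.1% of all genes). None of the 6 was called between the TAC groups. Slc25a4, on chromosome 8 from 46206797 to 46211284, was at 12.47, 12.63 and 12.77 in the day-1 TAC libraries, 12.6, 12.68 and 12.49 in the day-7 TAC libraries and 12.96, 12.86 and 12.76 in sham. Its day-1 TAC values overlapped sham at the edge and its day-7 TAC values lay below sham. It passed the test in neither comparison: the log2 fold change was -0.24 with day-1 TAC (SE 0.12, adjusted p = 0.163), and with day-7 TAC it was -0.27 (SE 0.12, adjusted p = 0.129).

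Slc25a5, the widely expressed translocase on the X chromosome from 36795651 to 36798807, had values of 7, 6.95 and 6.99 with day-1 TAC, 6.98, 7.05 and 6.82 with day-7 TAC and 6.84, 6.72 and 6.72 in sham. Every day-1 TAC library lay above every sham library, and day-7 TAC overlapped sham. It rose by 0.22 with day-1 TAC (SE 0.07, adjusted p = 0.0395), and was at 0.19 with day-7 TAC (SE 0.07, adjusted p = 0.0738). The rise is not a firm call, since it was lost without any single day-1 TAC library, without day-7 TAC replicate 1 and without sham replicate 2 or 3 (adjusted p 0.0301 to 0.118 over the 9 fits with a library left out; 0.22 and adjusted p = 0.0866 without day-1 TAC replicate 3). The day-7 TAC value passed without day-7 TAC replicate 3 (0.26, adjusted p = 0.0339). A pseudogene of Slc25a5 is annotated, and how the authors treated reads that match both is not given in the sources used here.

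Set against each other within a library, Slc25a4 exceeded Slc25a5 by 5.64 ± 0.16 log2 units with day-1 TAC, 5.64 ± 0.03 with day-7 TAC and 6.1 ± 0.05 in sham (SD, n = 3 each). All 6 TAC libraries had a smaller difference than all 3 sham libraries (exact permutation test, p = 0.1 for each TAC group, the smallest possible). The scaling of a library cancels in this difference.

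Calcium-dependent ATP-Mg/phosphate carriers adjust the total adenine nucleotide pool of the matrix. Slc25a23, a member of this group on chromosome 17, was at 7.1, 7.42 and 7.36 with day-1 TAC, 7.48, 7.37 and 7.25 with day-7 TAC and 6.58, 6.89 and 6.88 in sham. Both TAC groups lay wholly above sham, and it rose 1.42-fold with day-1 TAC (a log2 change of 0.51, SE 0.11, adjusted p = 0.00597) and 1.5-fold with day-7 TAC (0.59, SE 0.11, adjusted p = 0.00377). Those calls held in each of the 9 fits with a library left out.

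Slc25a25, the paralog on chromosome 2 whose upstream window is printed above, was at 3.81, 3.28 and 3.26 with day-1 TAC, 2.93, 3.36 and 2.8 with day-7 TAC and 2.46, 2.62 and 2.75 in sham. Replicate 1 was the highest of the day-1 TAC libraries, and all 3 lay above sham. The gene rose 1.8-fold with day-1 TAC (0.85, SE 0.19, adjusted p = 0.00683) and stood at 0.42 with day-7 TAC (SE 0.19, adjusted p = 0.116); between the TAC groups the difference was 0.42 (SE 0.19, adjusted p = 0.146). Its exons overlap those of Naif1 on the other strand over 4.8% of their length.

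Slc25a24, the third paralog of this kind, had values of 4.73, 4.58 and 4.56 with day-1 TAC, 4.78, 4.93 and 4.82 with day-7 TAC and 4.28, 4.4 and 4.56 in sham. Only its day-7 TAC libraries lay wholly above sham. It rose with day-7 TAC by 0.43 (SE 0.1, adjusted p = 0.00831) and was at 0.21 with day-1 TAC (SE 0.1, adjusted p = 0.115). The difference Slc25a25 minus Slc25a24 was -1.17 ± 0.22 with day-1 TAC, -1.81 ± 0.22 with day-7 TAC and -1.8 ± 0.02 in sham (SD, n = 3 each; exact permutation p = 0.1 for day-1 TAC against sham and against day-7 TAC, and p = 1 for day-7 TAC against sham).

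Slc25a31, the translocase known from testis, was near the detection limit. Its recovered reads were 21, 34 and 17 with day-1 TAC, 7, 12 and 18 with day-7 TAC and 24, 45 and 27 in sham, and its log2 values were 0, 0.74 and -0.18 with day-1 TAC, -1.78, -0.68 and -0.23 with day-7 TAC and 0.26, 0.81 and 0.49 in sham. Day-7 TAC lay below sham without overlap, and day-1 TAC overlapped it. It fell by 1.42 with day-7 TAC (SE 0.42, adjusted p = 0.0298), a call lost without day-7 TAC replicate 1 or 2 or any single sham library (adjusted p up to 0.0996).

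Slc25a3, the phosphate carrier, which also carries copper, lies on chromosome 10 from 91116574 to 91124059. Its values were 9.58, 9.66 and 9.66 with day-1 TAC, 9.54, 9.56 and 9.52 with day-7 TAC and 9.92, 9.82 and 9.81 in sham. The 6 TAC libraries were all below the 3 sham libraries. The fall was 0.22 with day-1 TAC (-0.22, SE 0.07, adjusted p = 0.0297) and 0.31 with day-7 TAC (-0.31, SE 0.07, adjusted p = 0.00729).

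With day-1 TAC the Slc25a3 call is not firm: it was lost without any single day-1 TAC library and without sham replicate 1 or 2 (adjusted p 0.0418 to 0.0788), under the other scalings (adjusted p up to 0.14) and with only the 2 groups in the fit (adjusted p = 0.0693). With day-7 TAC it held in every fit with a library left out, and was lost under quantile normalization (-0.18, adjusted p = 0.0554).

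Slc25a12 (aralar), the aspartate/glutamate carrier of heart, skeletal muscle and brain, on chromosome 2 from 71271063 to 71367749, was at 7.75, 7.6 and 7.62 with day-1 TAC, 7.64, 7.68 and 7.62 with day-7 TAC and 8.29, 8.22 and 7.99 in sham. The TAC groups overlapped each other and both lay below sham. It fell to 0.702 of sham with day-1 TAC (-0.51, SE 0.08, adjusted p = 0.0016) and to 0.697 of sham with day-7 TAC (-0.52, SE 0.08, adjusted p = 0.0018), with a difference of 0.01 between the TAC groups (SE 0.08, adjusted p = 0.949).

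Slc25a13 (citrin), the paralog best known from liver, was at 7.12, 7.19 and 7.13 with day-1 TAC, 6.9, 7.11 and 6.95 with day-7 TAC and 7.33, 7.29 and 7.25 in sham. Every TAC library was below every sham library. It fell by 0.31 with day-7 TAC (SE 0.07, adjusted p = 0.00906), and with day-1 TAC it was at -0.15 (SE 0.07, adjusted p = 0.127). Within a library Slc25a12 exceeded Slc25a13 by 0.51 ± 0.11 with day-1 TAC, 0.66 ± 0.09 with day-7 TAC and 0.87 ± 0.12 in sham (SD, n = 3 each; exact permutation p = 0.1 for each TAC group against sham). The highest day-7 TAC library and the lowest sham library were both at 0.74 after rounding.

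Slc25a11, the 2-oxoglutarate/malate carrier, had values of 7.63, 7.79 and 7.67 with day-1 TAC, 7.56, 7.67 and 7.59 with day-7 TAC and 7.76, 7.7 and 7.93 in sham. Its day-1 TAC values overlapped sham and its day-7 TAC values lay below. It did not pass the test: the log2 fold change was -0.1 with day-1 TAC (SE 0.08, adjusted p = 0.335), and with day-7 TAC it was -0.19 (SE 0.08, adjusted p = 0.0901); under quantile normalization the day-1 TAC value was 0.0078. Its exons overlap those of Rnf167 on the other strand over 8.9% of their length, and the strand setting of the authors' counting is not given in the sources used here.

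**Figure D3:**
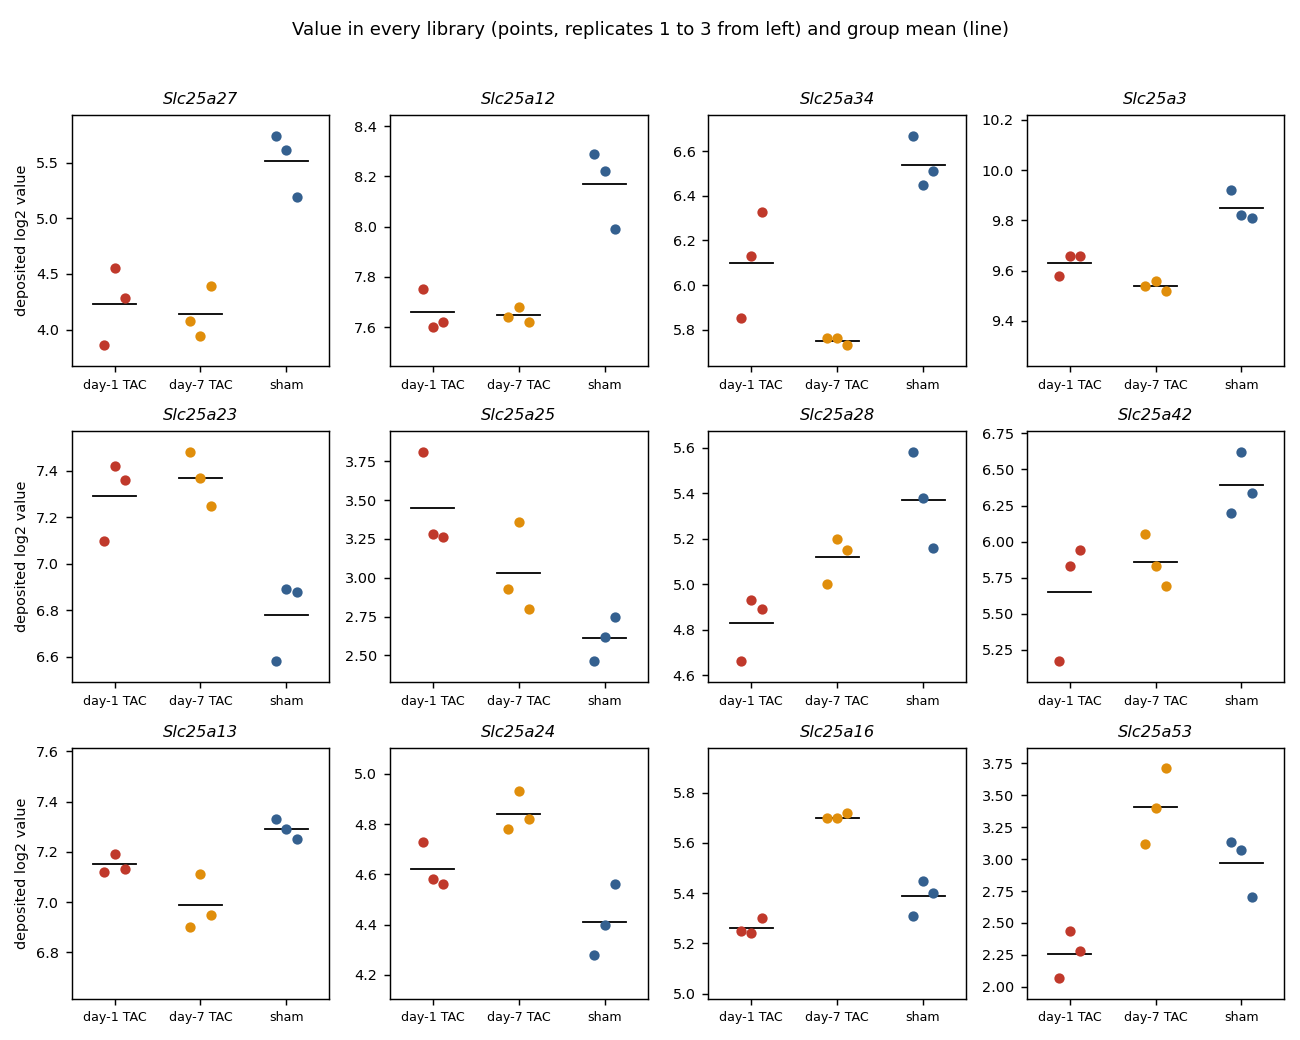
Deposited log2 value in every library (points, replicates 1 to 3 from left) and group mean (line) of 12 SLC25 members, for day-1 TAC, day-7 TAC and sham. Slc25a27, Slc25a12, Slc25a34 and Slc25a3 lie below sham and Slc25a23 above it in all 6 TAC libraries; Slc25a53 is low with day-1 TAC only and Slc25a16 is high with day-7 TAC only.

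The other carriers of organic acids moved less or were more variable. Slc25a10, the dicarboxylate carrier that exchanges malate or succinate for phosphate, was at 3.38, 2.95 and 2.77 with day-1 TAC, 2.96, 3.51 and 3.27 with day-7 TAC and 2.4, 2.66 and 2.61 in sham. Both TAC groups lay above sham. It rose by 0.69 with day-7 TAC (SE 0.19, adjusted p = 0.0197) and was at 0.48 with day-1 TAC (SE 0.19, adjusted p = 0.0697). The day-7 TAC call was lost without day-7 TAC replicate 2 or 3 or sham replicate 1 (adjusted p up to 0.0799), and day-1 TAC passed without its replicate 3 (0.61, adjusted p = 0.0443).

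The citrate carrier Slc25a1 (0.39 with day-1 TAC and 0.15 with day-7 TAC), the glutamate carriers Slc25a22 (-0.04 and -0.09) and Slc25a18 (-0.13 and -0.77) did not pass. Of the 7 tested members in this group, none rose and 1 fell with day-1 TAC (14.3% called, beside 34.8% of all genes). With day-7 TAC 1 rose and 2 fell (42.9% called, beside 28.9% of all genes). Summed over the group, linear values were 579.4 to 596.8 with day-1 TAC, 543.1 to 585.3 in the day-7 TAC group and 684.3 to 722.9 in sham. The sums of the TAC libraries thus lay below sham without overlap. Most of each sum came from Slc25a12, Slc25a11 and Slc25a13, so it says little about the other members.

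Enzymes that work beside these carriers were counted as a list. Of the 7 tested enzymes of the malate-aspartate and glycerol phosphate shuttles, none rose and 3 fell with day-1 TAC, and 1 rose and 6 fell with day-7 TAC (median log2 fold change -0.25 and -0.4). Of all genes 20.5% were lower with day-1 TAC and 15.1% with day-7 TAC. With day-1 TAC the fallen genes were Gpd1l (-0.55), Got1 (-0.29) and Got2 (-0.25). With day-7 TAC the largest changes were in Gpd1 (-0.56), Mdh2 (-0.52) and Gpd2 (0.46), the mitochondrial glycerol phosphate dehydrogenase. Of 16 enzymes of the citric acid cycle none rose and 6 fell with day-1 TAC, and none rose and 7 fell with day-7 TAC (37.5% and 43.8% lower; median -0.16 and -0.23); Cs, which encodes citrate synthase, was at -0.29 and -0.49 and called in both.

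Of 4 iron and glutathione carriers, 1 rose and 2 fell with day-1 TAC, beside 14.3% of all genes higher and 20.5% lower, and none of the 4 was called with day-7 TAC. None was called in the direct comparison of day-1 TAC with day-7 TAC either (adjusted p 0.095 to 0.148), so a difference between the TAC groups was not shown. Slc25a37 (mitoferrin 1), which imports iron in developing red cells, was at 4.76, 4.76 and 4.92 with day-1 TAC, 4.45, 4.73 and 4.49 with day-7 TAC and 4.38, 4.49 and 4.49 in sham. Its day-1 TAC libraries all lay above sham and above day-7 TAC. It rose by 0.35 with day-1 TAC (SE 0.1, adjusted p = 0.0176), a call lost without day-1 TAC replicate 3 (0.3, adjusted p = 0.0611). It was also lost when sham replicate 1 was left out, at 0.32 with an adjusted p of 0.0531.

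Red cell RNA was present in all libraries. The 6 erythroid markers in the table summed to linear values of 633.5 to 866 with day-1 TAC, 357.1 to 419.5 in the day-7 TAC group and 277.7 to 1013 in sham, of which sham replicate 1 was the highest. None of the 4 tested was called in any comparison. Their part in the Slc25a37 result was not tested.

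Slc25a28 (mitoferrin 2), the widely expressed iron importer, had values of 4.66, 4.93 and 4.89 with day-1 TAC, 5, 5.2 and 5.15 with day-7 TAC and 5.58, 5.38 and 5.16 in sham. Day-1 TAC lay below both other groups, and day-7 TAC overlapped sham. It fell to 0.687 of sham with day-1 TAC (-0.54, SE 0.12, adjusted p = 0.00578) and stood at -0.25 with day-7 TAC (SE 0.12, adjusted p = 0.126), which passed without sham replicate 3 (-0.36, adjusted p = 0.0447). Within a library Slc25a28 minus Slc25a37 was 0.02 ± 0.14 with day-1 TAC, 0.56 ± 0.1 with day-7 TAC and 0.91 ± 0.27 in sham (SD, n = 3 each), and no group overlapped another (exact permutation p = 0.1 for each pair, the smallest possible).

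Slc25a40, which with Slc25a39 carries glutathione into mitochondria, was at 3.9, 3.89 and 4.01 with day-1 TAC, 4.03, 4.2 and 4.23 with day-7 TAC and 4.26, 4.35 and 4.32 in sham. The 3 groups did not overlap. It fell by 0.38 with day-1 TAC (SE 0.09, adjusted p = 0.00915) and was at -0.16 with day-7 TAC (SE 0.09, adjusted p = 0.206), while Slc25a39 was not called (0.17 and -0.06). The difference Slc25a39 minus Slc25a40 was 1.84 ± 0.09 with day-1 TAC, 1.39 ± 0.23 with day-7 TAC and 1.29 ± 0.2 in sham (SD, n = 3 each; exact permutation p = 0.1 for day-1 TAC against sham and against day-7 TAC, and p = 0.6 for day-7 TAC against sham).

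**Figure D4:**
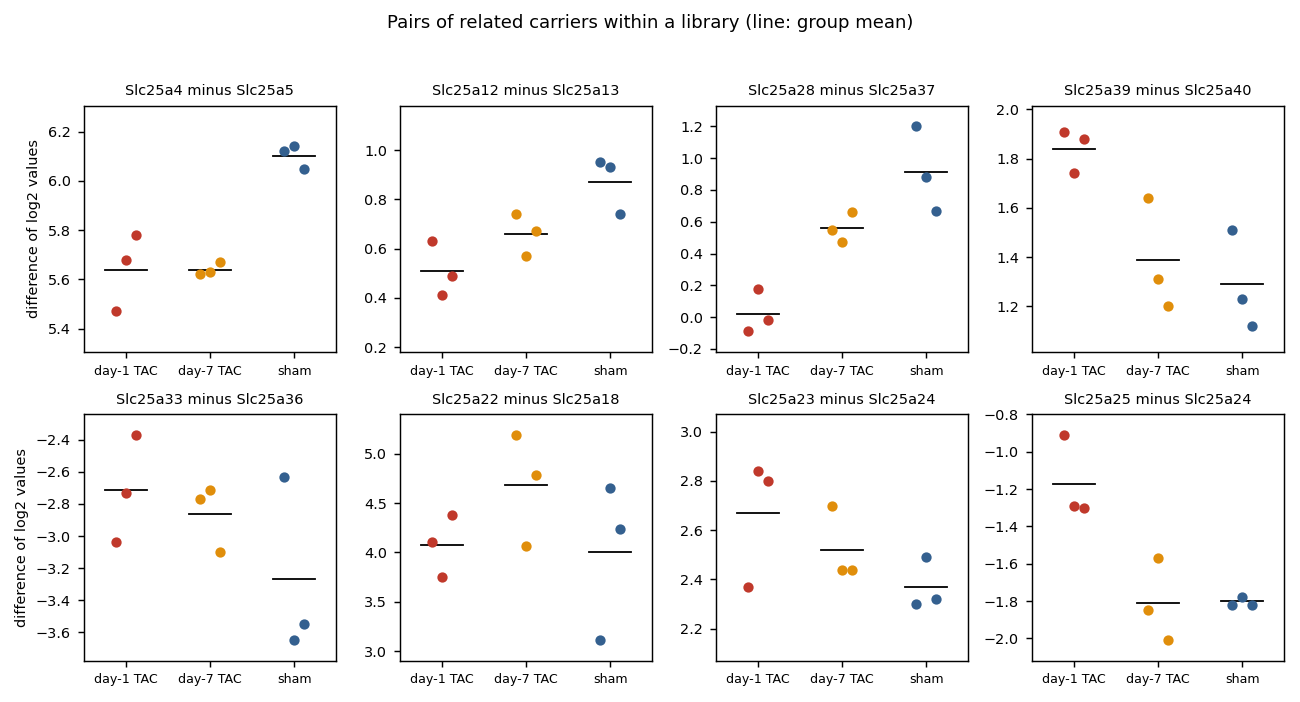
Difference of log2 values between 2 related carriers in the same library (points) and group mean (line), for 8 pairs. Slc25a4 minus Slc25a5 and Slc25a12 minus Slc25a13 are smaller in all 6 TAC libraries than in sham; Slc25a28 minus Slc25a37 differs between all 3 groups without overlap.

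Of the 6 amino acid carriers tested, 1 was called, with day-7 TAC (16.7%, beside 28.9% of all genes). Slc25a38, which imports glycine for the first step of haem synthesis, was at 3.77, 4.04 and 3.84 with day-1 TAC, 3.55, 3.66 and 3.76 with day-7 TAC and 4.21, 3.99 and 4.01 in sham. Day-7 TAC lay below both other groups. It fell by 0.41 with day-7 TAC (SE 0.11, adjusted p = 0.0191) and was at -0.18 with day-1 TAC (SE 0.11, adjusted p = 0.219). The call was lost without day-7 TAC replicate 1 or 2 or sham replicate 1 (adjusted p up to 0.0668). The ornithine carrier Slc25a15 (0 and -0.01) and the branched-chain amino acid carrier Slc25a44 (-0.02 and -0.02) had fold changes within their SE of 0.11 and 0.1.

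Of 9 tested carriers of coenzyme A, NAD and other cofactors, none rose and 2 fell with day-1 TAC, and 2 rose and none fell with day-7 TAC. That is 22.2% called in each comparison, below the 34.8% and 28.9% of all genes, and 1 of the 9, Slc25a16, was called between the TAC groups. Slc25a42, a carrier of coenzyme A, was at 5.17, 5.83 and 5.94 with day-1 TAC, 6.05, 5.83 and 5.69 with day-7 TAC and 6.2, 6.62 and 6.34 in sham. Both TAC groups lay below sham, and day-1 TAC replicate 1 was the lowest. It fell to 0.599 of sham with day-1 TAC (-0.74, SE 0.19, adjusted p = 0.0127) and was at -0.53 with day-7 TAC (SE 0.19, adjusted p = 0.0575). The day-1 TAC call was lost without sham replicate 2 (-0.62, adjusted p = 0.053), and the day-7 TAC value passed without day-1 TAC replicate 1 (adjusted p = 0.00943) or 3 (adjusted p = 0.0476), at the same fold change.

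Slc25a16, proposed as a coenzyme A carrier, lies on chromosome 10 from 62920633 to 62946498. Its values were 5.25, 5.24 and 5.3 with day-1 TAC, 5.7, 5.7 and 5.72 with day-7 TAC and 5.31, 5.45 and 5.4 in sham. Day-7 TAC lay above sham and day-1 TAC just below it, with no overlap among the 3 groups. It rose by 0.32 with day-7 TAC (SE 0.07, adjusted p = 0.00636), was at -0.12 with day-1 TAC (SE 0.07, adjusted p = 0.174), and was lower with day-1 TAC than with day-7 TAC by the direct test (-0.44, SE 0.07, adjusted p = 0.00332).

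Slc25a17, a carrier of cofactors in the peroxisome rather than the mitochondrion, had values of 4.67, 4.87 and 4.7 with day-1 TAC, 4.79, 4.99 and 4.9 with day-7 TAC and 4.35, 4.65 and 4.59 in sham. Both TAC groups lay above sham. It rose by 0.37 with day-7 TAC (SE 0.1, adjusted p = 0.0231) and was at 0.22 with day-1 TAC (SE 0.1, adjusted p = 0.12); the day-7 TAC call was lost without day-7 TAC replicate 2 or 3 or sham replicate 1 (adjusted p up to 0.0882). Slc25a51, the NAD carrier, fell by 0.2 with day-1 TAC (SE 0.06, adjusted p = 0.0295) and was at -0.14 with day-7 TAC (adjusted p = 0.111). That call was lost without day-1 TAC replicate 1 or 3 or sham replicate 2 or 3 (adjusted p up to 0.0929), under the other scalings (adjusted p up to 0.229) and with only the 2 groups in the fit (adjusted p = 0.0671).

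Not called in this group were the folate carrier Slc25a32 (0.02 with day-1 TAC and 0.13 with day-7 TAC), the pyrimidine nucleotide carriers Slc25a33 (0.15 and 0.39) and Slc25a36 (-0.41 and -0.02), and the S-adenosylmethionine carrier Slc25a26 (0.14 and -0.17). Slc25a26 was at 0.32 between the TAC groups (SE 0.1, adjusted p = 0.0546), and passed with a stricter filter (adjusted p = 0.0465), under quantile normalization (0.34, adjusted p = 0.0433), with TMM scaling recomputed (0.34, adjusted p = 0.0426) and with limma voom (0.34, adjusted p = 0.0431).

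Slc25a27 (UCP4), an uncoupling protein-like carrier known mainly from brain, had the largest fold change of the 40 members tested with day-1 TAC. It lies on chromosome 17 from 43641891 to 43667214. Its values were 3.86, 4.55 and 4.28 with day-1 TAC, 4.08, 3.94 and 4.39 with day-7 TAC and 5.74, 5.61 and 5.19 in sham, from 294 to 477 reads in the TAC libraries and 702 to 1248 in sham. All 6 TAC libraries lay below all 3 sham libraries. It was 2.43-fold lower with day-1 TAC (-1.28, SE 0.19, adjusted p = 0.00102) and 2.59-fold lower with day-7 TAC (-1.37, SE 0.19, adjusted p = 0.000901), and the TAC groups differed by 0.09 (SE 0.19, adjusted p = 0.772). Omitting any of the 9 libraries kept both calls, with an adjusted p of at most 0.00594.

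Slc25a14 and Slc25a30, the other carriers of this kind, did not pass in any comparison. X-linked Slc25a14 was at 1.61 to 2.21 with day-1 TAC and 1.82 to 2.25 in sham, and its lowest value was in day-1 TAC replicate 3. Against sham it was at -0.11 with day-1 TAC (adjusted p = 0.681), and without that library at 0.07 (adjusted p = 0.809).

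Of 4 family genes with other symbols that were tested, 1 rose and 2 fell with day-1 TAC (75% called, beside 34.8% of all genes). With day-7 TAC 1 rose and 1 fell (50% called, beside 28.9% of all genes). Ucp3, the muscle uncoupling protein, was at 4.26, 5.48 and 5.89 with day-1 TAC, 5.5, 5.01 and 4.76 with day-7 TAC and 6.5, 6.76 and 6.75 in sham, and fell in both, by 1.46 with day-1 TAC (SE 0.34, adjusted p = 0.0086) and by 1.58 with day-7 TAC (SE 0.34, adjusted p = 0.0071). Day-1 TAC replicate 1 was its lowest library, without which the day-1 TAC value was -0.98 (adjusted p = 0.00711). Ucp2, the widely expressed uncoupling protein, had values of 7.27, 7.55 and 7.53 with day-1 TAC, 9, 8.55 and 8.67 with day-7 TAC and 8.56, 8.65 and 8.69 in sham. It fell with day-1 TAC (-1.19, SE 0.12, adjusted p = 0.000148), stood at 0.11 with day-7 TAC (SE 0.12, adjusted p = 0.524), and was lower with day-1 TAC than with day-7 TAC (-1.29, SE 0.12, adjusted p = 0.000583). The carrier homologue Mtch1 rose in both (0.33 and 0.38).

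Of the 4 tested carriers without a settled substrate, none rose and 2 fell in each comparison with sham (20.5% and 15.1% of all genes fell). Slc25a34, an orphan carrier on chromosome 4 from 141618824 to 141623821, was at 5.85, 6.13 and 6.33 with day-1 TAC, 5.76, 5.76 and 5.73 with day-7 TAC and 6.67, 6.45 and 6.51 in sham. The 3 groups did not overlap, with day-7 TAC lowest. It fell to 0.737 of sham with day-1 TAC (-0.44, SE 0.11, adjusted p = 0.0116) and to 0.578 of sham with day-7 TAC (-0.79, SE 0.11, adjusted p = 0.000823). The difference between the TAC groups was 0.35 (SE 0.11, adjusted p = 0.053), and it passed without day-1 TAC replicate 1 (0.48, adjusted p = 0.0116). Leaving out sham replicate 1 also brought it to an adjusted p of 0.0499. The difference passed under 5 of the 10 alternatives other than omitting a library. Over those 10 its adjusted p ran from 0.035 (quantile normalization, 0.42) to 0.0988.

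X-linked Slc25a53, from 136981116 to 137038302, was low with day-1 TAC. Its values were 2.07, 2.44 and 2.28 with day-1 TAC, 3.12, 3.4 and 3.71 with day-7 TAC and 3.13, 3.07 and 2.7 in sham, from 88 to 110 reads with day-1 TAC, 203 to 275 in the day-7 TAC group and 125 to 215 in sham. Day-1 TAC lay below both other groups. It was 2.21-fold lower with day-1 TAC than with day-7 TAC (-1.15, SE 0.18, adjusted p = 0.00395) and 1.63-fold lower than in sham (-0.7, SE 0.18, adjusted p = 0.0134); with day-7 TAC it was at 0.44 against sham (SE 0.18, adjusted p = 0.091). Without day-1 TAC replicate 3 these values were -1.16 (adjusted p = 0.0116) and -0.71 (adjusted p = 0.0314). The day-1 TAC call against sham was lost without sham replicate 2 (-0.65, adjusted p = 0.0512), and the day-7 TAC value passed without day-7 TAC replicate 1 (0.59, adjusted p = 0.0496).

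Slc25a35, an orphan close to Slc25a34, was at 2.56, 2.99 and 2.63 with day-1 TAC, 1.74, 1.84 and 1.94 with day-7 TAC and 1.83, 1.89 and 2.62 in sham. Sham replicate 3 lay apart from the other sham libraries and within the day-1 TAC range. It was 1.85-fold higher with day-1 TAC than with day-7 TAC (0.89, SE 0.22, adjusted p = 0.022), and stood at 0.62 against sham with day-1 TAC (SE 0.22, adjusted p = 0.0502) and at -0.27 with day-7 TAC (SE 0.22, adjusted p = 0.383). The direct call was lost without day-1 TAC replicate 2 or any single day-7 TAC library (adjusted p up to 0.0722), and without sham replicate 3 the day-1 TAC value against sham passed (0.87, adjusted p = 0.00668). That value also passed under 4 of the 9 alternatives other than omitting a library. Over those 9 its adjusted p ran from 0.0299 (limma voom, 0.67) to 0.0843. The exons of Slc25a35 overlap those of Rangrf on the other strand over 31.3% of their length, so its reads are uncertain.

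Slc25a46, an outer-membrane protein that shapes mitochondria, fell by 0.25 with day-7 TAC (SE 0.08, adjusted p = 0.0321) and was at -0.18 with day-1 TAC (SE 0.08, adjusted p = 0.0861). The day-7 TAC call was lost without day-7 TAC replicate 2 or 3 or sham replicate 1 or 2 (adjusted p up to 0.0978), and the day-1 TAC value passed without sham replicate 3 (-0.25, adjusted p = 0.0263).

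Carriers reach the inner membrane through a dedicated import route of small Tim chaperones and the Tim22 translocase. The 13 import genes tested also include the outer-membrane entry genes Tomm7, Tomm20, Tomm22, Tomm40 and Tomm70a, which lie outside that Tim route. Of the 13, 7 rose and none fell with day-1 TAC, and 8 rose and 1 fell with day-7 TAC (median log2 fold change 0.21 and 0.37). Among these rises, Tomm22 (0.45 and 0.34) and Tomm40 (0.24 and 0.43) were called in both comparisons. Tomm20 (0.45) and Tomm70a (0.37) were called with day-7 TAC only. The background is 14.3% of all genes higher with day-1 TAC and 13.8% with day-7 TAC. Timm8a1 (0.88 with day-1 TAC and 1.37 with day-7 TAC) and Timm10 (0.77 and 0.88) encode chaperones of the intermembrane space and rose in both comparisons, as did Timm22 (0.59 and 0.38), the channel subunit. Timm9, the partner of Timm10, was at -0.04 with day-1 TAC (adjusted p = 0.802) and rose by 0.8 with day-7 TAC (adjusted p = 0.000477), and was lower with day-1 TAC than with day-7 TAC (-0.84, SE 0.1, adjusted p = 0.00107). The gene that fell with day-7 TAC was Timm29 (-0.26, adjusted p = 0.0204). Timm13 rose with day-1 TAC (0.42, adjusted p = 0.0451) and was at -0.3 with day-7 TAC (adjusted p = 0.139). It was higher with day-1 TAC than with day-7 TAC (0.72, adjusted p = 0.00943).

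**Figure D5:**
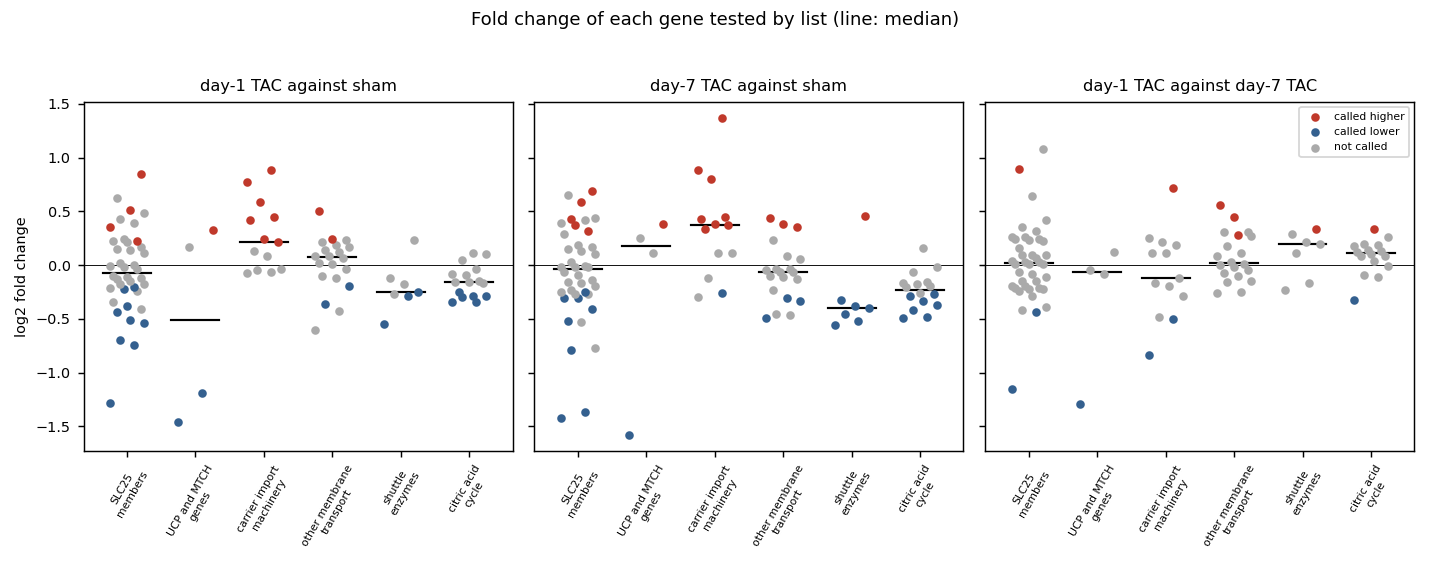
Log2 fold change of each gene tested (points) and the median (line) for the SLC25 members and 5 lists, in the comparisons of day-1 TAC with sham, day-7 TAC with sham and day-1 TAC with day-7 TAC. Import genes lie mostly above 0 against sham (medians 0.21 and 0.37), and shuttle enzymes mostly below (-0.25 and -0.4).

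Of 20 other mitochondrial transport genes tested, 2 rose and 2 fell with day-1 TAC, and 3 rose and 3 fell with day-7 TAC. That is 20% and 30% called, beside 34.8% and 28.9% of all genes (median log2 fold change 0.08 and -0.06). The largest called changes with day-7 TAC were in Sfxn4 (-0.49), Mpc1 (0.44) and Sfxn3 (0.38). Letm1, a cation exchanger of the inner membrane, rose with day-1 TAC (0.5), and Vdac1, the main channel of the outer membrane, fell in both (-0.36 and -0.33).

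Of 10 regulators of mitochondrial genes tested, none was higher and 3 were lower with day-1 TAC than with day-7 TAC (30% called, beside 16.7% of all genes), namely Ppargc1a, Ppargc1b (-0.69) and Nrf1 (-0.31). Ppargc1a, a coactivator of mitochondrial gene expression, was at 7.14, 7.49 and 7.68 with day-1 TAC, 9.2, 9.38 and 9.13 with day-7 TAC and 8.67, 8.46 and 8.24 in sham, so that day-1 TAC lay below and day-7 TAC above sham (-1.02, adjusted p = 0.000748, and 0.78, adjusted p = 0.00345; -1.8 between the TAC groups, adjusted p = 0.000583). Against sham, 1 of the 10 rose and 3 fell with day-1 TAC and 3 rose and 1 fell with day-7 TAC (40% called in each, beside 34.8% and 28.9% of all genes). Gabpa, a subunit of GA-binding protein, fell in both (-0.57 and -0.46). Pprc1, a gene related to Ppargc1a, was the only one to rise with day-1 TAC (0.74, adjusted p = 0.00687). With day-7 TAC it had the largest change of the 10 (1.16, adjusted p = 0.000926). Of 75 nuclear oxidative phosphorylation subunits, taken by symbol, 3 rose and 7 fell with day-1 TAC (13.3% called) and 3 rose and 30 fell with day-7 TAC (44% called). Between the TAC groups 21 of them were higher and 1 lower with day-1 TAC (29.3% called). Of 75 mitochondrial ribosomal protein genes 33 rose and 1 fell with day-1 TAC (45.3% called), 15 rose and 3 fell with day-7 TAC (24% called), and 14 were higher and 1 lower with day-1 TAC than with day-7 TAC (20% called).

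Markers of other cells were counted beside the 34.8% of all genes called with day-1 TAC and the 28.9% with day-7 TAC. Macrophage markers (37.5% and 25% called) and cardiomyocyte markers (33.3% and 25%) were near those shares. Called were 62.5% and 12.5% of fibroblast markers, 71.4% and 100% of neutrophil markers and 50% of endothelial markers in each comparison. Fibroblast markers rose in 4 and fell in 1 of 8 with day-1 TAC and rose in 1 of 8 with day-7 TAC, and their summed linear values were 4919 to 6975 with day-1 TAC, 4577 to 4984 in the day-7 TAC group and 3398 to 4746 in sham. Macrophage markers rose in 3 of 8 with day-1 TAC and fell in 2 of 8 with day-7 TAC (sums of 151.2 to 215.2 with day-1 TAC, 111.2 to 143.9 in the day-7 TAC group and 135.1 to 177.6 in sham). Neutrophil markers rose in 5 of 7 tested with day-1 TAC and 7 of 7 with day-7 TAC (sums of 7.144 to 31.57 with day-1 TAC, 30.25 to 70.05 in the day-7 TAC group and 2.134 to 4.443 in sham). Endothelial markers fell in 4 of 8 with day-1 TAC, and rose in 1 and fell in 3 of 8 with day-7 TAC (sums of 1319 to 1437 with day-1 TAC, 1393 to 1460 in the day-7 TAC group and 1475 to 1551 in sham). Of 12 cardiomyocyte markers, 1 was higher and 3 lower with day-1 TAC, and 1 was higher and 2 lower with day-7 TAC. The part of these cells in the members' values was not tested.

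Markers of neighbouring tissues were counted too, beside the same 34.8% and 28.9% of all genes called. Called were 28.6% of atrial and 50% of brown adipose markers in each comparison, and 60% and 80% of skeletal muscle markers. Among 7 tested markers of atrial cardiomyocytes, 1 was higher and 1 lower in each TAC group than in sham, and the higher one was Nppa (2.8 and 3.29), which the loaded ventricle also expresses. Of 5 skeletal muscle markers tested, 2 rose and 1 fell with day-1 TAC and 3 rose and 1 fell with day-7 TAC, led by Acta1 (5.11 and 2.74), which the heart expresses as well. The skeletal muscle markers Myh1, Myh2, Myh4, Actn3, Mylpf and Pvalb did not pass the filter on low values. Of 4 brown adipose markers tested, 1 rose and 1 fell in each comparison (Dio2 at 2.45 and 1.33). Adipoq, Plin1, Cfd and Lep, of the same list, did not pass the filter. The part of these tissues in the members' values was not tested.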

How the data were processed

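RNA of the left ventricle was measured in 9 libraries, 3 per group. Per the labels' protocols, mRNA was purified from total RNA and sequenced in single-end reads. Per the submitters' processing notes, Trim Galore, STAR and edgeR were used with mm10. Versions, annotation, strand setting and handling of multi-mapping reads were not given in the sources used here. What the authors deposited is on a log2 scale, TMM-scaled per the file headers. The library medians were nearly equal, at 3.75265 to 3.75542, as in values scaled to a common median. TMM factors recomputed from the recovered reads ran from 0.9598 to 1.0282. With them log2 fold changes against sham rose by a median of 0.039 with day-1 TAC and 0.012 with day-7 TAC. The day-1 TAC calls of Slc25a3 and Slc25a51 were then lost. The deposited values thus differ from recomputed TMM values. Taken out of the log, 100% of them were whole multiples of a step within 0.001 reads, which gave the reads per gene when the lowest value was taken as 1 read.

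The table had 16710 rows; 12 rows of 3 symbols, each on 4 rows, were left out. A single symbol of the family is not analysed here, and another is counted among the members but not reported by name. Genes above 0 in at least 3 libraries were tested with limma 3.58.1 in R 4.3.3, in 1 linear model over all 9 libraries with an intensity trend, two-sided, with Benjamini-Hochberg adjustment over all 13712 genes tested. The deposited values are on a log2 scale, and the main results rest on them and on no count model, although reads were recovered. Differences within a library and shares were tested with exact permutation tests. Of the sham columns, 2 share a header name, and their numbers 2 and 3 follow column order and pair nothing. The steps were tested on simulated data. Coordinates, exon lengths and overlaps are from GENCODE M21 on GRCm38. 0 columns of per-sample values were left unassigned.

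Members and lists were chosen with earlier results of these data known. Values in every library are given for the called members with the 10 largest absolute fold changes in each comparison and for Slc25a3, Slc25a4, Slc25a5, Slc25a11, Slc25a12 and Slc25a13. From the lists only some genes are named, and not in every list those with the largest changes. Alternatives were other filters, pseudocounts, scalings, fits and the omission of each library.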

Additional observations from a re-analysis of the deposited data

Results flagged for a closer look

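By the direct limma test 3 members differed between day-1 TAC and day-7 TAC. These groups differ in both age at surgery and time under load, which cannot be told apart here. Slc25a16 was at 5.26 with day-1 TAC and 5.7 with day-7 TAC, a difference of -0.44 (SE 0.07, adjusted p = 0.00332), lower in 3 of 3 day-1 TAC libraries than in each day-7 TAC library. Slc25a53 was at 2.26 and 3.41, a difference of -1.15 (SE 0.18, adjusted p = 0.00395), with no overlap of the groups. Slc25a35 was at 2.73 and 1.84, a difference of 0.89 (SE 0.22, adjusted p = 0.022), with no overlap, and this call was lost without day-1 TAC replicate 2 or any single day-7 TAC library. Its reads are uncertain, since 31.3% of its exon length overlaps exons of Rangrf. No group had enough samples for a test of a single far library.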

How the results depend on the processing

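Against sham, the calls of Slc25a12, Slc25a23, Slc25a27 and Slc25a34 in both TAC groups, of Slc25a25, Slc25a28 and Slc25a40 with day-1 TAC, and of Slc25a13, Slc25a16 and Slc25a24 with day-7 TAC held under all alternatives run, as did those of Slc25a16 and Slc25a53 between the TAC groups. Between day-1 TAC and day-7 TAC the members called were 3 as deposited, 5 with a stricter filter (mean log2 of at least 2), 6 under quantile normalization, 5 with TMM scaling recomputed from the recovered reads and 5 with limma voom on those reads, an alternative chosen after seeing the data whose calls over all genes numbered 4753 (day-1 TAC and sham), 4039 (day-7 TAC and sham) and 2131 (both TAC groups); the cause was not tested. With a library left out, members called ranged from 8 to 13 for day-1 TAC against sham (8 without sham replicate 2), from 8 to 14 for day-7 TAC against sham (8 without day-7 TAC replicate 2) and from 2 to 5 between the TAC groups (5 without day-1 TAC replicate 1), and all genes called from 2594 to 4404 for day-7 TAC against sham (3962 with all libraries) and from 1261 to 2491 between the TAC groups (2287 with all libraries), where 1290, 1261 and 1300 were called without day-7 TAC replicate 1, 2 or 3. Fewer samples enter those fits. Slc25a11 changed sign with day-1 TAC under quantile normalization (0.0078). Without Slc25a4 the members' share differed from sham by -0.0131 percentage points with day-1 TAC and -0.0255 with day-7 TAC, against -0.0766 and -0.123 with it. Of all calls 41.1% were higher with day-1 TAC against sham and 48.1% to 50.7% under 3 other scalings; the shares were 47.7% and 49.6% to 51.2% for day-7 TAC against sham, and 38.5% and 46.2% to 48.7% between the TAC groups. Same-numbered TAC libraries did not deviate together (correlations -0.224, -0.11 and -0.036), and other pairings ran from -0.167 to 0.228. With 3 libraries a group these values cannot decide whether same-numbered libraries share more than a number. With the replicate block 1167 genes and 3 members were called between the TAC groups. No paired analysis was possible because 2 sham columns carry no number of their own, for the comparisons with sham. DESeq2 and edgeR were planned and not run; on the recovered reads limma voom was run in their place. With 3 libraries a group, members with few reads, such as Slc25a31 and Slc25a47, are limited by counting error.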
